A study of Rattus norvegicus with 23 samples.

Results

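The genes described here encode the machinery of cell division and DNA replication: cyclins and their kinases, the origin-licensing MCM complex, the replication fork and its nucleotide supply, mitotic kinases, and spindle and chromosome proteins. They were measured in peripheral blood mononuclear cells (PBMC, the lymphocytes and monocytes of blood) of rat pups. The list held 43 genes. Of these, 39 were found on the array by gene name, each represented by its brightest probe, and 37 passed the filter on dim probes and were tested among 20671 features. Testing required 1 group or more in which 50% of the arrays or more had the pup's signal flagged by the scanner as well above background. The probes of Cenpe, a kinetochore motor, and Ccne2, a cyclin of S phase entry, did not pass: they were well above background on 3 and 4 of 23 arrays. A dimmer second probe of Ccne2 passed with a diet difference of -0.02 in males and 0.04 in females on the log2 scale. No probe carried the names Mki67, Mcm3, Aurka or Cdc45. Probes for Mki67, Mcm3 and Aurka were found through their description or accession; these 3 genes are given outside the counts, and Cdc45 was not analysed here. The probe named Tk1 lies on another chromosome than RefSeq gives for Tk1, so its name is uncertain.

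Male and female Wistar pups were studied at an age of 21 days. The 4 groups were 5 sons of calorie-restricted dams (CR males), 6 sons of freely fed dams (control males), 6 daughters of calorie-restricted dams (CR females) and 6 daughters of freely fed dams (control females). Restricted dams received 20% fewer calories through lactation, whereas control dams ate standard chow freely, and all pups were killed at weaning under free feeding. Each pup had 1 two-colour array on which its RNA was labelled with Cy5, and the Cy3 channel held a pool of all samples. Values are log2 ratios of the pup to that pool, so 0 means the pool's level, and they cannot be compared between genes as levels. There was no dye swap. The labels name 11 control and 5 CR dams without tying pups to litters, so pups were treated as independent and p-values may be too small.

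The eukaryotic cell cycle is driven by cyclins that switch on cyclin-dependent kinases in turn. E2F factors and cyclin E open S phase, MCM helicases loaded on origins unwind DNA, and cyclins A and B with Cdk1 drive mitosis, which ends when the anaphase-promoting complex destroys its substrates. Most circulating lymphocytes and monocytes are quiescent, and dividing cells in the blood of a young animal include precursors of red and white cells and activated lymphocytes. In late members of this pathway, transcription is known to depend on CCAAT boxes and on the cell cycle homology region (CHR), and in early members on E2F sites.

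RefSeq promoters (assembly GRCr8, from 250 bases before to 50 bases after the gene's start) were found for 28 of the 37 tested members. Both strands were searched for the CCAAT box, for TTTGAA, which is the core of the CHR, and for the E2F sites TTCCCGCC and TTTGGCGC. A CCAAT match was present in 75% of the 28 promoters, against 37.5% of all 33469 promoters. The CHR core matched in 12 of 18 late members and in 1 of 10 early ones, against 18.3% of all promoters. TTTGGCGC matched in 3 of 10 early and 0 of 18 late members, against 0.493% of all promoters, and TTCCCGCC in 1 of 10 early and 2 of 18 late members, against 1.91%. These matches describe letters and do not show binding.

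Promoters are shown for the 2 late (G2 and mitosis) and the 2 early (G1/S and replication) genes that varied most closely with the other members among those with a promoter in the table. The late ones are Cdk1, the mitotic kinase (chr20:19265043-19265342, plus strand), and Bub1, a spindle checkpoint kinase (chr3:135504872-135505171, minus strand). The early ones are Ccne1, which encodes cyclin E1 (chr1:99927860-99928159, minus strand), and Tyms, thymidylate synthase (chr9:120776034-120776333, minus strand). Capitals mark matches to the motifs, and ATTGG is CCAAT on the other strand. The sequences run 5′ to 3′ on the gene's strand.
Cdk1: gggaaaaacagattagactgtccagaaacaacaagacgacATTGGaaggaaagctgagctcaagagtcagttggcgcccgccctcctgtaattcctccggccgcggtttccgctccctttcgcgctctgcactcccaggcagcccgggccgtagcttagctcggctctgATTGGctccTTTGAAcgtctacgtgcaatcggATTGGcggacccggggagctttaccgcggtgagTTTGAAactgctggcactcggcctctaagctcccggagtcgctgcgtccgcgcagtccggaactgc
Bub1: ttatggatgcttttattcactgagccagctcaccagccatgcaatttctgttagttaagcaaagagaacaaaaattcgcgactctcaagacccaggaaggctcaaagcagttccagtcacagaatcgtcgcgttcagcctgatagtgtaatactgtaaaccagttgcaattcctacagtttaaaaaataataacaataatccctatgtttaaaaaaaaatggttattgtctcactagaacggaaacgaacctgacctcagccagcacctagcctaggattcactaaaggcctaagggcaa
Ccne1: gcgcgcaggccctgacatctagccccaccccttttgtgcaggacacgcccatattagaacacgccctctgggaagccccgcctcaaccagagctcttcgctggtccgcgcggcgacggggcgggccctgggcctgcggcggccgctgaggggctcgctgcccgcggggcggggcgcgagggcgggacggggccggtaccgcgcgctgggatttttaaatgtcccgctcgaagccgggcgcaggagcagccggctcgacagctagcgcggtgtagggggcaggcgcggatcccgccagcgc
Tyms: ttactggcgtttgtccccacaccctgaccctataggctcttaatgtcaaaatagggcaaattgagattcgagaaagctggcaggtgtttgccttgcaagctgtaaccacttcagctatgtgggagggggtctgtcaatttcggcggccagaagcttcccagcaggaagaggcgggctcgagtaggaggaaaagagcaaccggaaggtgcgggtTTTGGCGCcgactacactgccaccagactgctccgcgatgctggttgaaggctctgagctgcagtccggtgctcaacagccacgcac
Cdk1 had 3 CCAAT matches, beginning 210, 81 and 49 bases before the start, and 2 CHR cores, beginning 72 and 16 bases before it. Tyms had 1 TTTGGCGC match, beginning 37 bases before its start. No match overlapped another, and Bub1 and Ccne1 held none of the 4 motifs in this window.

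Across the 6 slides, 20603 to 24076 probes per array were well above background in the pup's channel, and 32 of the 39 members were so on all 23 arrays, with none saturated. On 4 arrays the log2 ratios were narrow (median absolute deviation under 0.1): CR males replicate 4, CR females replicates 2 and 5 and control females replicate 2. Among markers of the labelled cells, 13 of 14 T cell, 10 of 12 B cell, 10 of 11 monocyte and 9 of 10 natural killer cell genes were tested. Markers of other blood cells were also measured, with 14 of 17 red cell precursor, 8 of 12 neutrophil and precursor, 7 of 8 platelet and 1 of 7 stem and progenitor genes tested. The mean red cell marker ratio spanned -1.18 to 0.40 in CR males, -1.47 to -0.10 in control males, -0.99 to 1.45 in CR females and -1.21 to 0.82 in control females.

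The main feature of these genes was a shared swing between pups of the same group. Top2a, the topoisomerase that untangles chromosomes, had log2 ratios of -0.40, -0.61, 0.42, 0.05 and -0.75 in the 5 CR males. In control males its lowest, median and highest values were -0.80, 0.15 and 0.83 (n = 6). In CR females they were -0.20, 0.02 and 0.83, and in control females -0.29, -0.15 and 0.35 (n = 6 each). The highest control male therefore stood 3.10-fold above the lowest, and all 4 groups overlapped.

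Mki67, the proliferation antigen Ki-67, ran closely with it. It had -0.42, -0.79, 0.44, 0.05 and -0.82 in CR males, against -0.86, -0.18 and 0.70 (lowest, median, highest) in control males. The same pups were high and low as for Top2a: CR males replicate 3 was the highest and replicate 5 the lowest of its group for both genes. CR females had -0.27, 0.02 and 0.85, and control females -0.37, -0.16 and 0.58. Cdk1 spanned -0.76 to 0.45 in CR males, -0.78 to 0.94 in control males, -0.28 to 0.95 in CR females and -0.55 to 0.37 in control females, again with overlap everywhere.

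**Figure D1:**
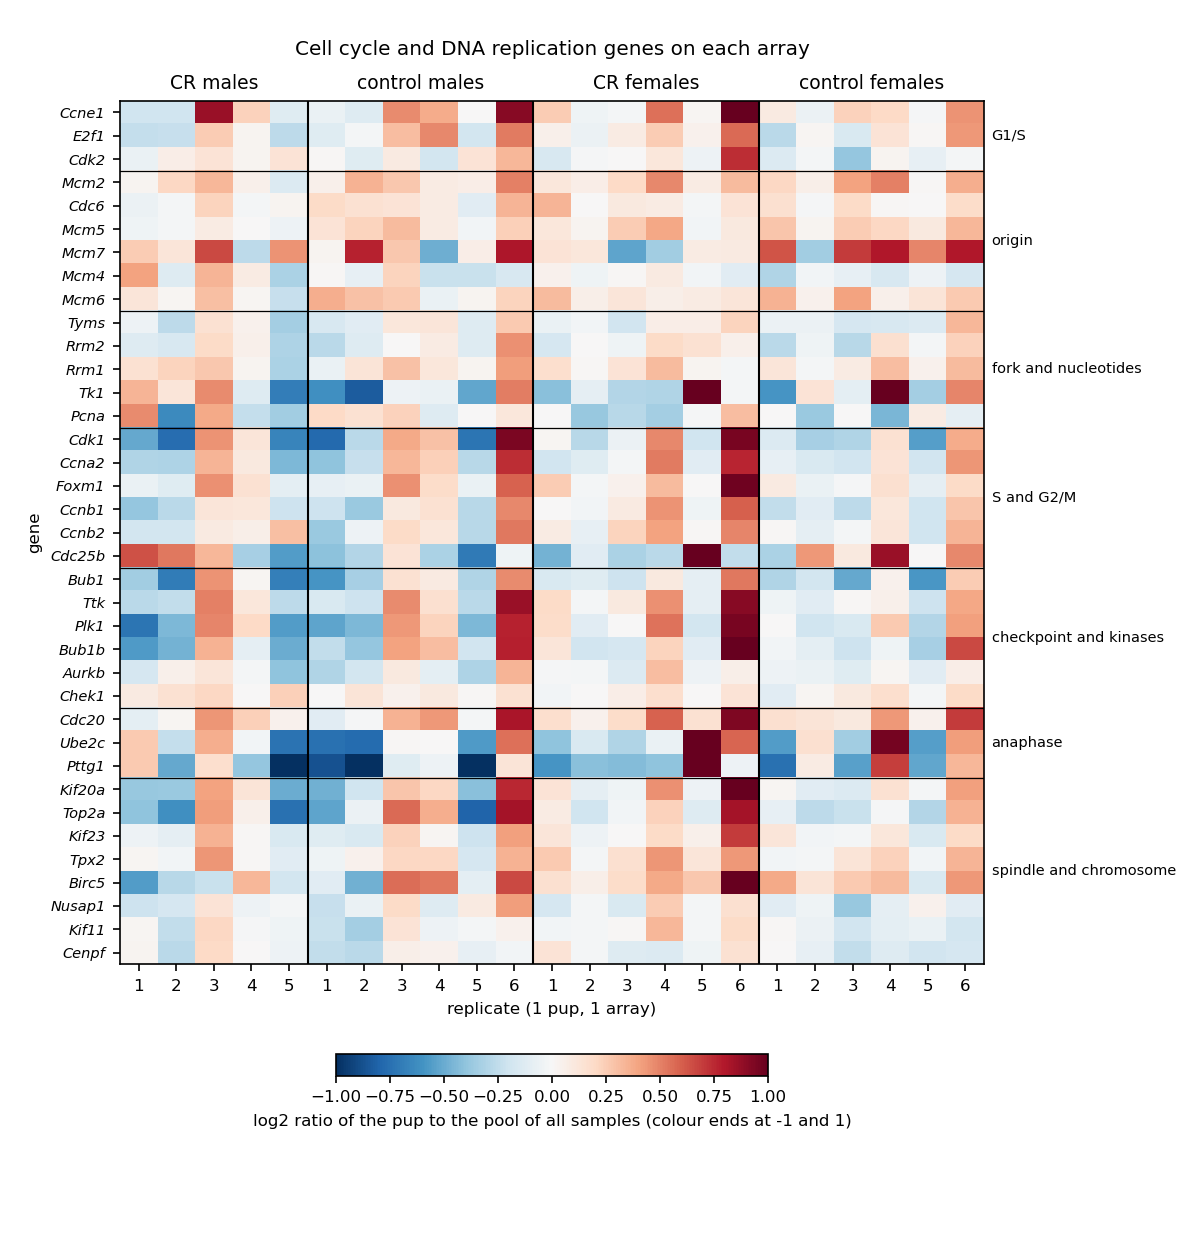
Log2 ratio of each pup to the pool of all samples (colour, ending at -1 and 1) for the 37 tested genes (rows, by role) on the 23 arrays (columns, by group and replicate). Columns such as CR males replicate 3, control males replicate 6 and CR females replicate 6 are red for most mitotic genes, whereas CR females replicate 6 is near 0 for Mcm4 (-0.11), Mcm6 (0.12) and Mcm7 (0.09).

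To describe this swing apart from diet and sex, group means were subtracted and each gene was set against the mean of the other members over the 23 arrays. These correlations share arrays, one pool and one normalization, and are given as descriptions. The mean pairwise Pearson's r among the 37 members was 0.49. Among all features it was 0, but normalization within each array centres all features, so this is no benchmark for a list of related genes. A swing between pups was not particular to these members. The SD of a list's mean within groups was 0.17 to 0.28 for the members, 0.6 to 0.91 for red cell precursor markers and 0.07 to 0.17 for T cell markers. The members' median SD within groups was 0.266 on the log2 scale, against 0.137 for all features, and it spanned 0.0917 for Chek1 to 0.597 for Pttg1. The offset of 50 in the background correction narrows the ratios of dim probes. Members and all features were not matched for brightness, so its part in these SDs was not tested.

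By this measure 13 of 23 late members and 4 of 14 early members had an r over 0.8. Late members outnumber early ones in the mean of the others, so that mean leans towards them and the counts do not rank the phases. Cdk1 and Ccna2 (cyclin A2) reached 0.94, and Kif20a, a cytokinesis motor, and Bub1 reached 0.93. Top2a and Ttk, the Mps1 checkpoint kinase, had 0.92. Among early members, Ccne1 had 0.90, E2f1, an S phase transcription factor, 0.89, Tyms 0.85 and Rrm2, the regulated subunit of ribonucleotide reductase, 0.81. Mki67, which was outside the counts, had 0.95. The mean of the 14 early members followed the mean of the 23 late members with r = 0.88 (Spearman's rho 0.82, and r = 0.83 without the 2 farthest arrays).

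The MCM helicase subunits were among the members with lower values. None of the 6 tested origin genes had an r over 0.8: Mcm2 had 0.66, Cdc6, which loads the helicase, 0.42, and Mcm5 0.41. Mcm7, Mcm4 and Mcm6 had 0.26, 0.22 and 0.15, and the last was -0.03 without the 2 farthest arrays. Pcna, the sliding clamp of the replication fork, had 0.29. The other gene under 0.3 was Cdc25b, a phosphatase that activates cyclin-dependent kinases, at 0.27. Mcm3, which was outside the counts, had 0.53. Members of other groups lay near these values too: Kif11 had 0.56, Cdk2 0.53, Cenpf 0.52 and Chek1 0.46.

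Cdc25b varied with another set of genes. Its r with the mean of the 14 red cell precursor markers (such as Alas2, the first enzyme of haem synthesis in red cells) was 0.92. Pttg1 (securin, which holds separase inactive) and the probe named Tk1 (thymidine kinase) each had 0.97 with those markers. Ube2c, the ubiquitin-conjugating enzyme of the anaphase-promoting complex, had 0.92. Without the 2 farthest arrays these 4 values were 0.86, 0.94, 0.96 and 0.87. With the mean of the other members, Ube2c had r = 0.71, Pttg1 0.62 and Tk1 0.55, against 0.27 for Cdc25b. Cdk1, by comparison, had 0.29 and Kif20a 0.26 with the red cell markers, and Rrm2 had 0.64. The CR females replicate 5 array, with the highest red cell marker mean, also had the highest Cdc25b (1.74), Pttg1 (1.26), Tk1 (1.48) and Ube2c (1.40) of its group. In whole PBMC, fewer cells of a type and less RNA per cell cannot be told apart.

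**Figure D2:**
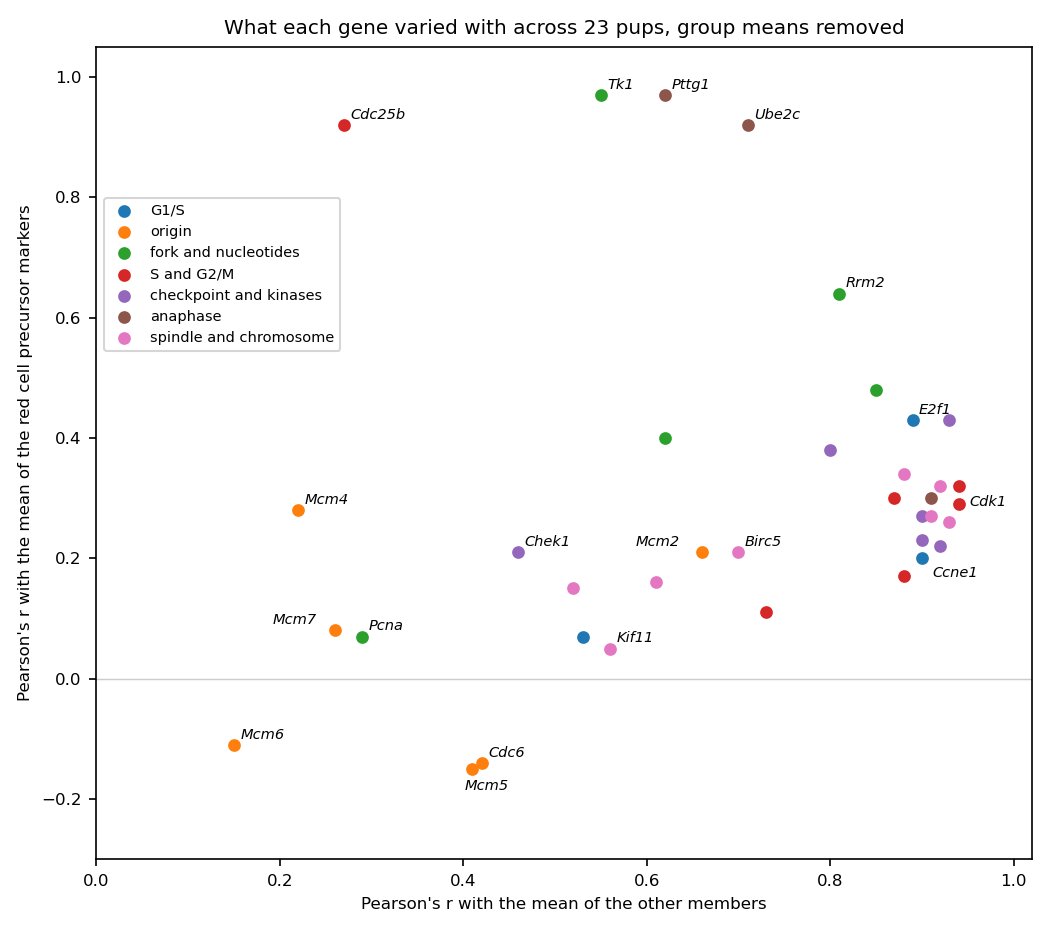
Each point is 1 of the 37 tested genes, coloured by role, with its Pearson's r across 23 arrays (group means removed) to the mean of the other members on the horizontal axis and to the mean of 14 red cell precursor markers on the vertical axis. Mitotic genes crowd at the right, Mcm4, Mcm6, Mcm7 and Pcna lie at the lower left, and Cdc25b, Tk1, Pttg1 and Ube2c lie at the top above 0.9.

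Outside the list, the named genes most like the members' mean among 9901 were Spag5, a spindle protein (r = 0.97), Cdkn3, a phosphatase of cyclin-dependent kinases (0.97), Cenpt of the kinetochore (0.94), Dlgap5, a spindle assembly protein (0.94), Espl1, separase (0.94), and Nuf2 of the kinetochore (0.93). The least like were Krt1, a keratin (-0.76), Ggct, an enzyme of glutathione breakdown (-0.69), and Igbp1, a regulator of protein phosphatases (-0.69). Among blood cell marker lists, the mean of neutrophil and precursor genes had r = 0.67 with the members' mean, B cells 0.63, early T cell precursors 0.59 and red cell precursors 0.53. Plasma cells had 0.37, platelets 0.01, monocytes -0.15, natural killer cells -0.25 and T cells -0.45 (-0.22 without the 2 farthest arrays). Myb, the only tested stem and progenitor gene, had 0.61. The part of these cells in the members' swing was not tested.

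The diet comparison in sons asked whether restriction of the dam during lactation changed these genes at weaning. None of the 37 members was called at an adjusted p under 0.05 by limma with Benjamini-Hochberg adjustment, and 0% of all features were. At an unadjusted p under 0.05 there was 1 member, against 7.17% of all features. The 37 differences, CR minus control, had a median of -0.11 on the log2 scale (range -0.37 to 0.39), and 28 were lower in CR males, against 52.7% of all features. The median was -0.02 without control males replicate 6 and -0.32 under median centring. Since members swing together between pups, this count does not stand for 28 separate observations. The members' mean per array was -0.08, -0.18, 0.31, 0.02 and -0.27 in CR males, against -0.22, -0.03 and 0.46 (lowest, median, highest) in control males.

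**Figure D3:**
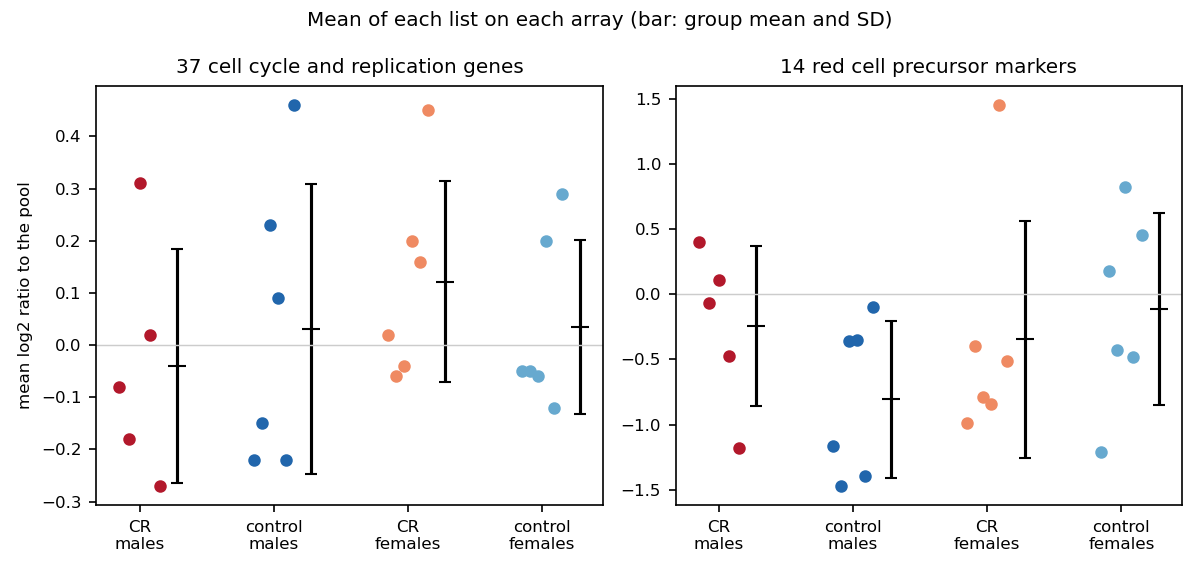
Mean log2 ratio to the pool of the 37 members (left) and of 14 red cell precursor markers (right) on each array, by group, with the group mean and SD as bars; the vertical scales differ. The groups overlap in both panels, and 1 CR female stands at 1.45 for the red cell markers.

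The member that passed the unadjusted threshold in sons was Mcm5, a helicase subunit (probe at rn4 chr19:13992982-13993041, plus strand). It had -0.04, -0.02, 0.08, 0 and -0.05 in CR males, against -0.03, 0.18 and 0.32 (lowest, median, highest) in control males. CR males were thus tightly grouped and low, but overlapped the lowest control males. The difference was -0.17 ± 0.07 (SE; 95% interval -0.32 to -0.02; adjusted p = 0.673). Daughters had -0.03, 0.10 and 0.39 in the CR group and 0.03, 0.23 and 0.33 in controls, with a difference of -0.06 ± 0.07 (adjusted p = 0.995). Averaged over the sexes, Mcm5 had -0.11 ± 0.05 (adjusted p = 0.652). From the scanner's own log ratios the difference in sons was -0.50, still with no call.

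Birc5 (survivin, of the chromosomal passenger complex) had -0.56, -0.28, -0.22, 0.33 and -0.18 in CR males, against -0.48, 0.22 and 0.66 in control males. Its difference was -0.36 ± 0.20 (adjusted p = 0.734), and it was lower in CR males on each of the 4 slides that carried both groups. CR females had 0.06, 0.22 and 1.1, and control females -0.15, 0.29 and 0.43; the female difference of 0.13 became -0.02 without CR females replicate 6. E2f1 had -0.24, -0.23, 0.25, 0.03 and -0.26 in CR males, against -0.18, 0.14 and 0.52 in control males, a difference of -0.25 ± 0.15 (adjusted p = 0.737). In daughters E2f1 had -0.06, 0.07 and 0.57 in the CR group and -0.27, 0.02 and 0.43 in controls. Both genes overlapped between diets in each sex.

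In the other direction, Mcm4 had 0.40, -0.13, 0.34, 0.08 and -0.32 in CR males, against -0.22, -0.12 and 0.22 in control males, a difference of 0.15 ± 0.10 (adjusted p = 0.788). CR females had -0.11, -0.01 and 0.09 for Mcm4, against -0.30, -0.12 and -0.03 in control females. Cdc25b had 0.64, 0.53, 0.33, -0.33 and -0.56 in CR males, against -0.71, -0.30 and 0.14 in control males, a difference of 0.39 ± 0.31 (adjusted p = 0.817). The red cell markers moved beside it, with a median difference of 0.56 over 14 genes in sons. Of these, 13 were higher in CR males, where 52.7% of all features were lower. In daughters their median was -0.23, with 3 higher and 11 lower. The part of these markers in the Cdc25b value was not tested. Chek1, the replication checkpoint kinase, had 0.09, 0.15, 0.21, 0 and 0.24 in CR males, against 0, 0.07 and 0.15 in control males, a difference of 0.06 ± 0.06 (adjusted p = 0.853). In CR females Cdc25b had -0.47, -0.26 and 1.74, against -0.32, 0.27 and 0.86 in control females. Its difference of -0.20 in daughters became -0.54 without CR females replicate 5 and 0.22 under scale normalization. In sons its difference was -0.06 under median centring. Chek1 was flat in daughters, at -0.03, 0.04 and 0.17 in CR females and -0.11, 0.06 and 0.19 in control females.

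Among the division markers in sons, Top2a differed by -0.32 ± 0.26 (95% interval -0.85 to 0.21, adjusted p = 0.818). Mki67 differed by -0.23 ± 0.28 (adjusted p = 0.893). Cdk1 had -0.24 ± 0.29 (adjusted p = 0.889), Ccnb1, cyclin B1, -0.11 ± 0.15 (adjusted p = 0.913) and Rrm2 -0.08 ± 0.12 (adjusted p = 0.922). Without control males replicate 6, Top2a had -0.17, Mki67 -0.07, Cdk1 -0.05, Ccnb1 -0.01 and Rrm2 0.02. Each standard error was as large as the difference or nearly so. Among replication genes, Pcna had -0.17 ± 0.17 (adjusted p = 0.861), Mcm2 -0.12 ± 0.11 (adjusted p = 0.838), Mcm6 -0.13 ± 0.09 (adjusted p = 0.781), Mcm3 -0.04 ± 0.09 (adjusted p = 0.952) and Mcm7 0 ± 0.23 (adjusted p = 0.999).

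In daughters most members lay the other way. None was called, nor was any feature (0%), and 2 of 37 members passed an unadjusted p under 0.05, against 4.65% of all features. The median difference was 0.13 (range -0.59 to 0.29), with 30 members higher in CR females, and 48.4% of all features were lower. The median was 0.03 without CR females replicate 6 and 0.02 with array weights. The members' mean per array spanned -0.06, 0.09 and 0.45 (lowest, median, highest) in CR females and -0.12, -0.05 and 0.29 in control females. All 6 mitotic and checkpoint kinases and all 8 spindle and chromosome genes were at or above 0 in this comparison, with medians of 0.19 and 0.13.

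The largest female difference was that of Mcm7 (probe at rn4 chr12:17608669-17609371, minus strand), a helicase subunit. It was lower in CR females, as were 7 of 37 members in all, among them Cdc25b (-0.20), Mcm6 (-0.08), Mcm5 (-0.06) and Mcm2 (-0.05). It had -0.53, 0.08 and 0.14 (lowest, median, highest) in CR females, against -0.35, 0.66 and 0.80 in control females. Of the 6 control females, 5 lay at or above 0.49, above each CR female, and replicate 2, one of the narrow arrays, lay at -0.35. The difference was -0.59 ± 0.22 (95% interval -1.04 to -0.14, adjusted p = 0.995), -0.76 without that array and -0.30 under scale normalization. It was lower in CR females on 5 of 6 slides. In sons Mcm7 had 0.25, 0.12, 0.66, -0.26 and 0.45 in the CR group, against -0.49, 0.17 and 0.81 in controls, and the average over the sexes was -0.29 ± 0.16 (adjusted p = 0.732).

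The second member past the unadjusted threshold was Kif11, the motor that separates spindle poles. It had -0.03, 0 and 0.33 in CR females, against -0.19, -0.08 and 0.01 in control females, a difference of 0.17 ± 0.08 (adjusted p = 0.995). Its signal was well above background on 21 arrays in all and in 4 of the 6 CR females. A second Kif11 probe, well above background on 12 arrays, gave 0.14 in daughters. Sons had 0.02, -0.25, 0.21, -0.01 and -0.04 in the CR group and -0.34, -0.03 and 0.14 in controls. The female value depended on the processing, at 0.08 from Cy5 alone and 1.06 from the scanner's log ratio. Cdk2, the partner kinase of cyclin E, had 0.21 ± 0.12 and Ccnb1 0.25 ± 0.14 in daughters (adjusted p = 0.995 for both). A second Cdk2 probe gave 0 and had r = -0.06 with the first. The second Ccnb1 probe gave 0.04 and had r = 0.87 with the first.

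The division markers in daughters were Top2a at 0.21 ± 0.25, Cdk1 at 0.29 ± 0.28 and Mki67 at 0.14 ± 0.27 (adjusted p = 0.995 for each). Top2a and Cdk1 were higher in CR females on all 6 slides, as were 9 of the 37 members in all. The share of all features was not counted, and members swing together, so these are not 9 separate observations. On slide 2, where both female arrays were narrow, Top2a differed by 0.06 and Cdk1 by 0.05. The difference for Top2a was 0.07 without CR females replicate 6. Among replication genes Mcm6 had -0.08 ± 0.09, Mcm2 -0.05 ± 0.10, Mcm4 0.13 ± 0.10, E2f1 0.12 ± 0.14 and Rrm2 0.07 ± 0.11 (adjusted p = 0.995 for each). Pcna had 0.02 ± 0.16 (adjusted p = 0.997). Mcm3 had -0.18 ± 0.09 (adjusted p = 0.995), with -0.10, 0.04 and 0.18 in CR females, against 0.09, 0.23 and 0.35 in control females. Its unadjusted p by limma was 0.0479, but Mcm3 was outside the counts.

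**Figure D4:**
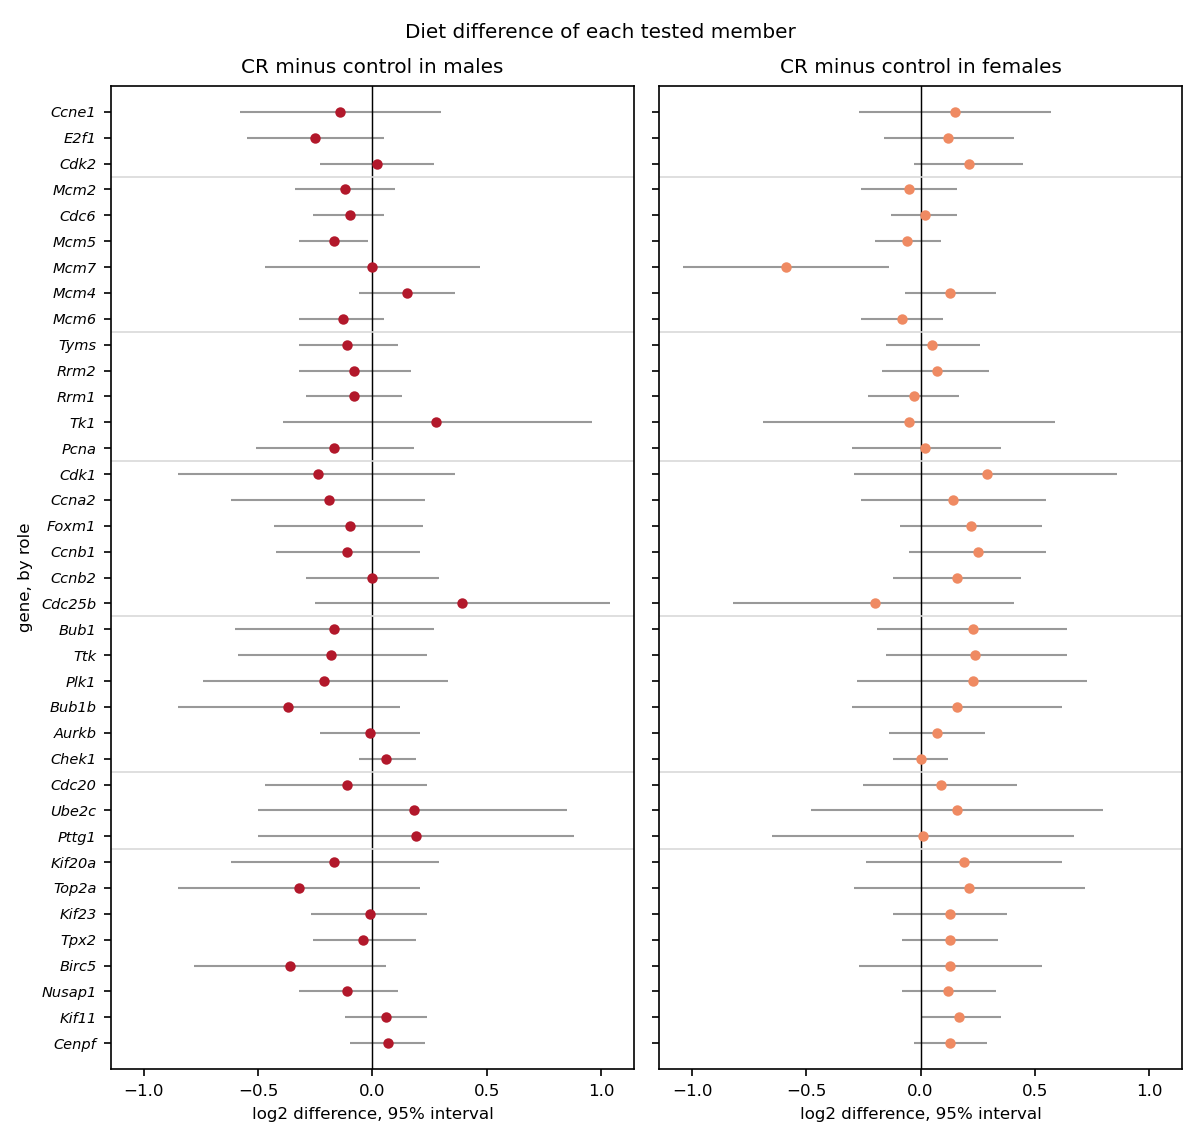
Log2 difference, CR minus control, with its 95% interval for each of the 37 tested genes, by role, in males (left) and females (right). In males 28 points lie below 0 and in females 30 lie above it; the intervals of Mcm5 in males and of Mcm7 and Kif11 in females leave 0, and none was called after adjustment.

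By role, the median difference in sons was -0.17 for 6 checkpoint and mitotic kinases, -0.14 for 3 G1/S genes, -0.11 for 6 origin genes, -0.10 for 6 S and G2/M cyclins and regulators, -0.08 for 5 fork and nucleotide genes and -0.07 for 8 spindle and chromosome genes. The 3 anaphase genes had 0.18, where Pttg1 (0.19) and Ube2c (0.18) lay with the red cell markers and Cdc20, the activator of the anaphase-promoting complex, at -0.11. In daughters the origin genes alone were below 0 (median -0.05, with 4 of 6 lower). The other 6 roles had medians of 0.02 to 0.19.

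Slide and scan time coincide and cannot be told apart. With slide as a block, the member medians were -0.13 in sons and 0.13 in daughters, and without the 4 narrow arrays they were -0.11 and 0.18. Within the 4 slides that held sons of both diets, the members' mean differed by -0.31, -0.26, 0.53 and -0.73, so it was lower on 3 and higher on 1. Within the 6 slides of daughters it differed by 0.07, -0.02, 0.02, 0.01, 0.28 and 0.16. No member separated the diets without overlap in either sex, where 0.396% of all features did in sons and 0.201% in daughters.

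Averaged over the sexes, the member median was 0.01, with 22 higher and 15 lower in CR pups. No feature was called (0%), and 1 member, Mcm5, passed an unadjusted p under 0.05, against 7.36% of all features. After Mcm5, the smallest p-values with a lower level in CR pups were those of Mcm7 and Mcm6. Mcm6, at rn4 chr13:41052148-41052207 on the minus strand, had 0.12, 0.02, 0.30, 0.02 and -0.23 in CR males, against -0.07, 0.24 and 0.36 in control males. It had 0.06, 0.10 and 0.32 in CR females, against 0.04, 0.20 and 0.40 in control females, and an average difference of -0.11 ± 0.06 (adjusted p = 0.767). Mcm3 had the same average, -0.11 ± 0.06 (adjusted p = 0.75), and Mcm2 had -0.09 ± 0.07 (adjusted p = 0.864).

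Mcm4 (0.14 ± 0.07, adjusted p = 0.717), Kif11 (0.12 ± 0.06, adjusted p = 0.719) and Cenpf, a kinetochore protein (0.10 ± 0.06, adjusted p = 0.749), had the smallest p-values among the genes with a higher level. Mcm4 thus lay opposite to the other 5 subunits of its complex, although its second probe gave -0.01 (r = 0.72 with the first). Cenpf had 0.03, -0.27, 0.20, 0 and -0.05 in CR males, against -0.27, -0.05 and 0.06 in control males. It had -0.14, -0.03 and 0.15 in CR females, against -0.25, -0.15 and 0 in control females. The division markers were close to 0: Mki67 -0.04 ± 0.19, Top2a -0.05 ± 0.18, Cdk1 0.02 ± 0.20, Ccnb1 0.07 ± 0.10, Rrm2 0 ± 0.08, E2f1 -0.06 ± 0.10 and Pcna -0.07 ± 0.11 (adjusted p of 0.939 to 0.994). The 95% interval for Top2a, -0.42 to 0.32, shows the size of change that these 23 arrays leave unresolved.

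**Figure D5:**
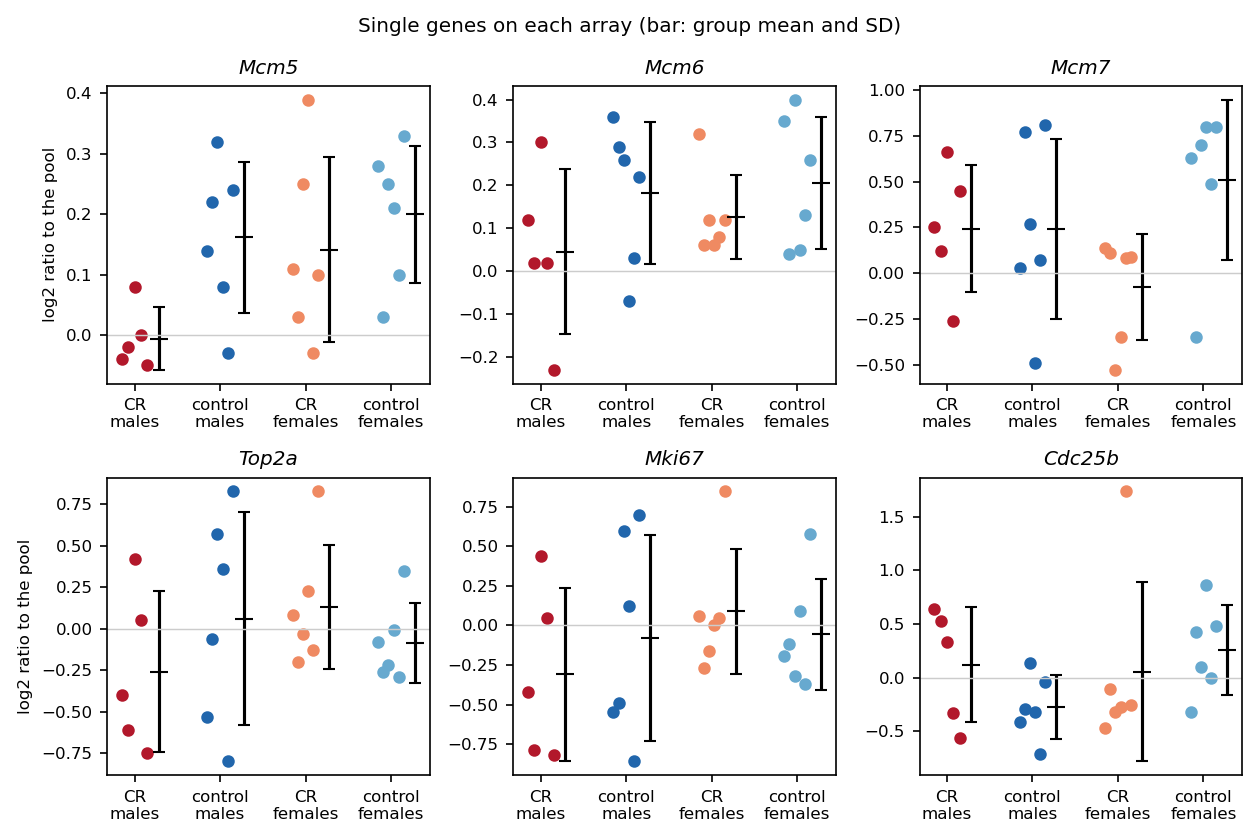
Log2 ratio to the pool on each array for 6 genes, by group, with the group mean and SD as bars; vertical scales differ between panels. CR males sit low for Mcm5, 5 of 6 control females sit above the CR females for Mcm7, Top2a and Mki67 spread widely in every group, and 1 CR female stands at 1.74 for Cdc25b.

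Whether diet acted differently in sons and daughters was tested as the difference of the differences. No feature was called (0%), and 0 of 37 members passed an unadjusted p under 0.05, against 4.65% of all features. The members' median was -0.16, with 30 of 37 below 0, so the opposite leanings of the sexes were not separable from the spread between pups. E2f1 had -0.38 ± 0.20, Birc5 -0.49 ± 0.28 and Ccnb1 -0.36 ± 0.21, and on the other side Mcm7 had 0.59 ± 0.31, Cdc25b 0.60 ± 0.43 and Tk1 0.33 ± 0.45 (adjusted p of 0.935 for all but Tk1 at 0.962). Without CR females replicate 5, Cdc25b had 0.94 and Tk1 0.62. Under scale normalization Cdc25b had -0.03, Tk1 -0.18 and Mcm7 0.19. The red cell markers had a median of 0.66 in this comparison and the monocyte markers 0.29, with 13 of 14 and 10 of 10 above 0. Of all features, 52.4% were below 0. At an unadjusted p under 0.05 there were 0 red cell markers and 1 monocyte marker, and none was called. Markers of 1 cell type can vary together between pups, so these counts are not separate observations.

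Between sexes over both diets, males minus females, the members' median was -0.08, with 30 of 37 lower in males, against 50.7% of all features. That median was -0.02 under scale normalization and 0.01 with array weights. Of all features 0.0581% were called and no member was. At an unadjusted p under 0.05 there was 1 member, against 7.4% of all features. This was Birc5, at -0.30 ± 0.14 (adjusted p = 0.674). Mcm5 had -0.09 ± 0.05 (adjusted p = 0.728) and Kif20a -0.20 ± 0.15 (adjusted p = 0.787). Pcna (0.14 ± 0.11), Chek1 (0.05 ± 0.04) and Mcm4 (0.07 ± 0.07) were the highest ranked in the other direction (adjusted p of 0.804 to 0.836). The red cell markers were also lower in males in 13 of 14 cases, with a median of -0.40; their part was not tested.

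Other genes of the pathway were counted in the same comparisons. Of 140 such genes in 3 lists 110 were tested, and none was called in any comparison. At an unadjusted p under 0.05 there were 5 in sons (4.55%, against 7.17% of all features), 8 in daughters (7.27%, against 4.65%) and 5 for the mean of the sexes (4.55%, against 7.36%). There were 9 for the difference of the differences (8.18%, against 4.65%) and 0 between sexes (against 7.4%). In sons 37 of 47 further mitosis genes and 31 of 42 further replication genes were lower in CR males, against 52.7% of all features. In daughters 40 of 47 and 30 of 42 were higher in CR females, where 48.4% of all features were lower. The 21 D cyclins, CDK4/6, inhibitors and pocket proteins were evenly split, at 11 higher and 10 lower in each sex. The means of the lists followed the members' mean with r = 0.97 for mitosis, 0.88 for replication and 0.27 for the third list. The mitosis and replication genes thus swing with the members on the same arrays, and their counts are not a second observation.

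For the mean of the sexes, Cdca8, of the chromosomal passenger complex, had 0.12 ± 0.04 (adjusted p = 0.59), and Ckap2l, a spindle protein, 0.11 ± 0.05 (adjusted p = 0.62). Pold2, a subunit of DNA polymerase delta, had -0.13 ± 0.05 (adjusted p = 0.59), Rpa1, which binds single-stranded DNA, -0.14 ± 0.10, Orc2, of the origin recognition complex, 0.19 ± 0.09 and Gins2, of the replicative helicase, 0.06 ± 0.03. Tubb5, a tubulin, and Tacc3, a spindle protein, had -0.09 ± 0.10 and -0.07 ± 0.07. Among genes that gate entry into the cycle, Cdk4 had -0.13 ± 0.06, the antiproliferative Btg1 -0.10 ± 0.07, the E2F partner Tfdp1 0.10 ± 0.06 and the inhibitor Cdkn2d 0.19 ± 0.11 (adjusted p of 0.684 to 0.806). None of these passed the adjusted threshold.

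Beside these values, 10 of 10 B cell markers were lower in CR pups for the mean of the sexes (median -0.32), against 49.2% of all features. Of the 10, 7 passed an unadjusted p under 0.05, against 7.36% of all features, and none was called. Ms4a1 (CD20) had -0.52 ± 0.13 (adjusted p = 0.497). In sons 10 of 10 were lower (median -0.4), and in daughters 7 were lower and 3 higher (median -0.27). Markers of 1 cell type can vary together between pups, so these counts are not separate observations. Values below are also for the mean of the sexes unless a sex is named. All 8 tested neutrophil markers lay above 0 (median 0.13), with S100a9 at 0.57 ± 0.22 and S100a8 at 0.51 ± 0.22. Of 9 natural killer markers 7 were higher and 2 lower (median 0.12). The receptor Klrd1 had 0.32 ± 0.10, which was 0.65 in males and -0.01 in females, Klrb1a 0.25 ± 0.09, Klrb1c -0.04 ± 0.09 and perforin, Prf1, -0.06 ± 0.09. Of 14 red cell markers 12 were higher and 2 lower (median 0.15), but the medians lay opposite by sex. In sons 13 were higher and 1 lower (median 0.56), and in daughters 3 were higher and 11 lower (median -0.23). The 13 T cell markers were split, with 8 higher and 5 lower in CR pups and a median of 0.01, and Cd3d had 0.11 ± 0.05 and Cd4 -0.13 ± 0.10. The haem enzyme Alas2 had 0.33 ± 0.42 (1.01 in males and -0.35 in females). Hbb-b1, a beta globin, had 0.82 ± 0.61 (0.95 in males and 0.68 in females). None of these was called, and their part in the members' values was not tested.

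Second probes of members were compared with the probe used. Mki67 and Mcm3, outside the counts, had 2 probes each, and theirs were not compared. Among 15 members with more than 1 probe, 16 other probes were kept, with a median r of 0.69 to the probe used (range -0.15 to 0.96). The second Top2a probe had r = 0.90 and diet differences of -0.11 in sons and 0.13 in daughters. That of Ccnb1 had r = 0.87 and differences of -0.03 and 0.04, against -0.11 and 0.25 for the probe used. That of Rrm2 had r = 0.56 and differences of 0.12 and 0.13, against -0.08 and 0.07. Both further probes of Rrm1, the large subunit of ribonucleotide reductase, did not follow the first, with r of -0.15 and -0.12. They gave 0.09 and -0.06 in sons and 0.10 and 0.07 in daughters, against -0.08 and -0.03 for the probe used. No direction is therefore given for Rrm1 alone, although the member counts include it by the probe used.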

How the data were processed

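PBMC RNA of 23 pups (Cy5) was hybridised against a pool of all samples (Cy3), per the labels. The authors scanned Agilent rat arrays (design 014879, probe positions on rn4) using the software Agilent Feature Extraction 10.5.1.1, as the file headers and the submitters' processing notes state. The deposited scanner files hold, per the file headers, an unnormalized intensity for each spot and channel, a dye-normalized log10 ratio of Cy5 to Cy3, and other columns of spot flags. A table of log2 levels that the authors deposited followed Cy5 (r of 0.989 to 0.997 per array); its method is not given in the sources used here, and it served as an alternative.

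Mean intensities were corrected with limma 3.58.1 (R 4.3.3) by normexp on the local background with an offset of 50, then loess within each array without control spots; on each array 127 to 427 outlier spots were removed, and repeated spots of 1 probe were averaged. Each gene was its brightest probe, and limma's lmFit and eBayes were fitted over 4 group means with Benjamini-Hochberg adjustment over 20671 features. Names of other genes came from RefSeq assembly GRCr8, which matched 19913 of 41012 probes. A median log2 difference over a list is a description. The number of arrays limits precision.

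Named were the 3 members with the smallest p in each direction of each comparison, 13 fixed division and replication genes, and the 2 genes with the smallest p in each direction of each other list; 1 gene so named is not reported here. The members, lists and rules were chosen with earlier results of these data known. Alternatives covered background correction, normalization, channel, filter, probe choice, slide, replicate number, array weights and leaving out each array; leaving out the 4 narrow arrays was chosen after seeing the data. The fit was tested on simulated data. Same-numbered replicates did not pair (r of -0.24 to 0.33 between their deviations from group means).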

Additional observations from a re-analysis of the deposited data

Results flagged for a closer look

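Of 148 pairs of member and group, 14 had a single array far from the others by Dixon's ratio (its gap to the nearest array over the group's range). Chance gives about 1 in 20 for independent genes. Members share arrays and swing together, so 1 pup can count several times and the 14 cannot be set against that rate. CR females replicate 6 was the high one for 5 genes: Cdk2 (ratio 0.705), Birc5 (0.686), Kif23 (0.683), Foxm1 (0.66) and Bub1b (0.657). CR females replicate 5 was high for Cdc25b (0.839, at a log2 ratio of 1.74 with the next at -0.11), Tk1 (0.788) and Pttg1 (0.707), and had the highest red cell marker mean, 1.45; its part was not tested. Control females replicate 6 was high for Tyms (0.773) and Bub1b (0.699). CR females replicate 1 was high for Mcm6 (0.742) and CR males replicate 3 for Tpx2 (0.759). On the low side were control females replicate 2 for Mcm7 (0.731, at -0.35 with the next at 0.49) and replicate 3 for Nusap1 (0.648). Male groups gave 1 of the 14. No member's diet effect differed between the sexes by the test of that difference.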

How the results depend on the processing

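No member was called in any comparison under any of the 13 other settings or with any 1 of the 23 arrays left out; the smallest adjusted p was 0.0898, for Mcm6 and Pcna in sons under median centring, which moved the median of all features by -0.19 there and by -0.16 in the difference between the sexes. Relative to that shift the member median in sons was -0.13. Of 7170 values of single genes, 500 changed sign at some size, and 1 turned beyond its standard error: Mcm3 in the difference between the sexes, at -0.29 under median centring against 0.14; the cause was not tested. The member median in sons ranged from -0.17 to -0.02 with 1 array left out (highest without control males replicate 6) and from -0.32 to -0.03 over the other settings, and in daughters from 0.03 (without CR females replicate 6) to 0.17 and from 0.02 (array weights) to 0.18. Among all features, 1 was called in sons with a replicate block, where the numbers do not pair the pups, 2 for the mean of the sexes with array weights, and 6 rather than 12 between sexes among features well above background on all arrays. Leaving out 1 array gave 0 to 4 calls in sons (4 without CR males replicate 2) and 0 to 3 for the mean of the sexes (3 without CR males replicate 2, 1 without CR females replicate 1). The replicate block changed no other call. Signal limits Cenpe and Ccne2. Of the tested members, Nusap1 was well above background on 9 arrays, Cenpf and Kif11 on 21, and Cdc6 and Chek1 on 22.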
